A study of Homo sapiens with 12 samples.

Results

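The comparison set the extracellular domain (ECD) of SEMA5A against its intracellular domain (ICD), each carried into cells on a plasmid. It drew on 6 of the 12 arrays of the series, 3 with SEMA5A_ECD and 3 with SEMA5A_ICD, and on every probe with a detection p under 0.05 on all 3 arrays of either group. The rule kept 18103 of 47323 probes (38.3%). Of these, 16309 met it in both groups, 939 only with ECD and 855 only with ICD. Taking 1 probe for each gene symbol left 14840 features, 10675 genes with a symbol and 4165 probes without one, and the other 3263 probes were further probes of those genes. For 3 more symbols the probe that stood for the gene did not meet the rule. At the edge of the rule, 56 probes had a highest detection p of 0.04935 in their better group, with a median ECD minus ICD difference of -0.06 on the log2 scale, and 99 stood just outside at 0.05065, with a median of 0.03.

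Cells labelled A549, an established line of human lung adenocarcinoma, were transfected with 1 of 4 plasmids using the jetPRIME reagent, and RNA was taken 24 h later. The groups of 3 arrays carried SEMA5A_ECD, SEMA5A_ICD, the full-length protein (Full) or a control plasmid (Empty), and the last pair served here to place the levels and to estimate the spread. All 4 groups shared the transfection itself and the serum-containing medium. The sources used here name neither the vector and its promoter nor the share of cells that took up a plasmid. They also do not say whether replicates were separate transfections, so the spread behind each p-value is that between arrays and may be technical. The number of arrays limits the precision of every value.

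SEMA5A is a transmembrane semaphorin. Outside the cell it has a sema domain and a row of thrombospondin repeats that bind sulphated proteoglycans, and plexin B3 is its known receptor. Its part inside the cell is short. Much of what follows concerns the innate interferon system. In that system, sensors of foreign RNA or DNA in the cytosol activate interferon regulatory factors and NF-kB, which switch on interferon beta. Secreted interferon then acts through its receptor, JAK kinases and a complex of STAT proteins with IRF9, which binds the interferon-stimulated response element (ISRE) in the promoters of antiviral effector genes.

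The constructs themselves could not be read on the array. Both SEMA5A probes were above background on 0 of 12 arrays, at 85.4 to 97.9 and 94.2 to 103.6 intensity units, with 0.274 as their lowest detection p on the ECD and ICD arrays. Their position relative to the cloned domains is not given here, so they checked neither overexpression nor the labels. The PLXNB3 probe, for the plexin B3 receptor, was also above background on 0 of 12 arrays. Normalized levels of MET, a receptor kinase that plexins associate with, were 8.64, 8.65 and 8.50 with ECD and 8.53, 8.55 and 8.58 with ICD. These groups overlapped, and the log2 difference was 0.05 ± 0.09 (limma, SE, adjusted p = 0.85).

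Markers of the labelled cell line went partly against the label. AKR1C1, AKR1B10, KRT19 and CDH1, genes known for high or clear expression in A549 cells, were above background on 0 of 12 arrays. ALDH1A1 was dim, at 103.6 to 121 units for its brighter probe, while KRT8 read 417.8 to 634.5 and KRT18 and MUC1 were detected on all 12. CDKN2A, a locus known to be deleted in A549, was above background on 12 of 12 arrays at 349.3 to 525.2 units. CDKN2A was looked at after values of these data were seen. The cells are therefore called cells labelled A549, and all 4 groups shared these readings. Among markers of other cells, 1 of 9 for leukocytes was above background on all 6 arrays (CD68, which many other cells also express), with summed intensities of 2557 to 2783 with ECD and 2134 to 2388 with ICD, 3 markers at background on every one of the 6 arrays, and a log2 difference for CD68 of 0.28 ± 0.09 that was not called (adjusted p = 0.18, but 0.042 without background correction). For fibroblasts it was 1 of 10 (ACTA2), with sums of 1202 to 1241 with ECD and 1145 to 1233 with ICD and 6 markers at background throughout. For endothelium it was 0 of 10, with sums of 997.2 to 1009 with ECD and 972.9 to 996.2 with ICD. KDR was above background on 2 ICD arrays, TIE1 on 1 ICD array, and TEK and ERG on 1 ECD array each. The rest were at background throughout. The part of other cells in any result was not tested.

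The ECD arrays were slightly brighter. Their 95th percentile of intensity was 9.80 to 10.1 times background, against 9.24 to 9.42 times on the ICD arrays, and 19303 to 20366 and 19639 to 20076 probes were detected. Its part in the results was not tested. Across features, normalized arrays correlated at r = 0.996 within ECD, at 0.994 to 0.995 within ICD and at 0.991 to 0.993 between them. Features are not independent replicates. The first principal component of the 6 arrays held 42.3% of their variance and put ECD at -14.7 to -11.9 and ICD at 10.4 to 14.95. On the second, with 18.5%, ICD replicate 3 stood apart at -16.2, against 7.42 and 10.4 for the other ICD arrays.

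With the extracellular domain, 170 features were called higher than with the intracellular domain (1.11% of the 15338 tested) and 92 lower (0.6%), by limma with Benjamini-Hochberg adjustment at 0.05. Of these, 136 and 54 had a gene symbol. In 140 higher and 83 lower calls the probe passed the detection rule in both groups, where 1.66% of features were called. Another 30 higher calls passed only with ECD (4.23% of such features called) and 9 lower calls only with ICD (1.29%). For these the filter itself favours the direction of the call. The higher calls were the larger ones. At 1.5-fold or more there were 123 higher (0.802%) and 22 lower (0.143%), at 2-fold or more 63 and 2 (C1QTNF4 and an unnamed probe), and at 4-fold or more 11 and none. No called feature had overlapping groups, which the call itself makes likely with 3 arrays a group. Some features that were not called were separate as well, such as CD68, and the share over all features was not counted. The median log2 difference of all features tested was -0.02. An unadjusted p under 0.05 was reached by 2104 features. In these bulk samples, fewer cells that express a gene and less of its RNA in each cell cannot be told apart.

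The split between directions moved with the scaling and with other settings. The share of higher calls ran from 49.2% with median scaling to 88.1% at an adjusted p under 0.01. Scaling each array to its median in place of quantiles moved the median of all features to -0.06 and gave 160 higher and 165 lower calls, 49.2% higher against 64.9%, with 153 of the 170 and 89 of the 92 shared. The lower count also moved with single arrays. It was 27, 20 and 60 without ECD replicate 1, 2 or 3, and 46, 49 and 37 without ICD replicate 1, 2 or 3, against 119 to 140 higher calls in these fits.

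**Figure D1:**
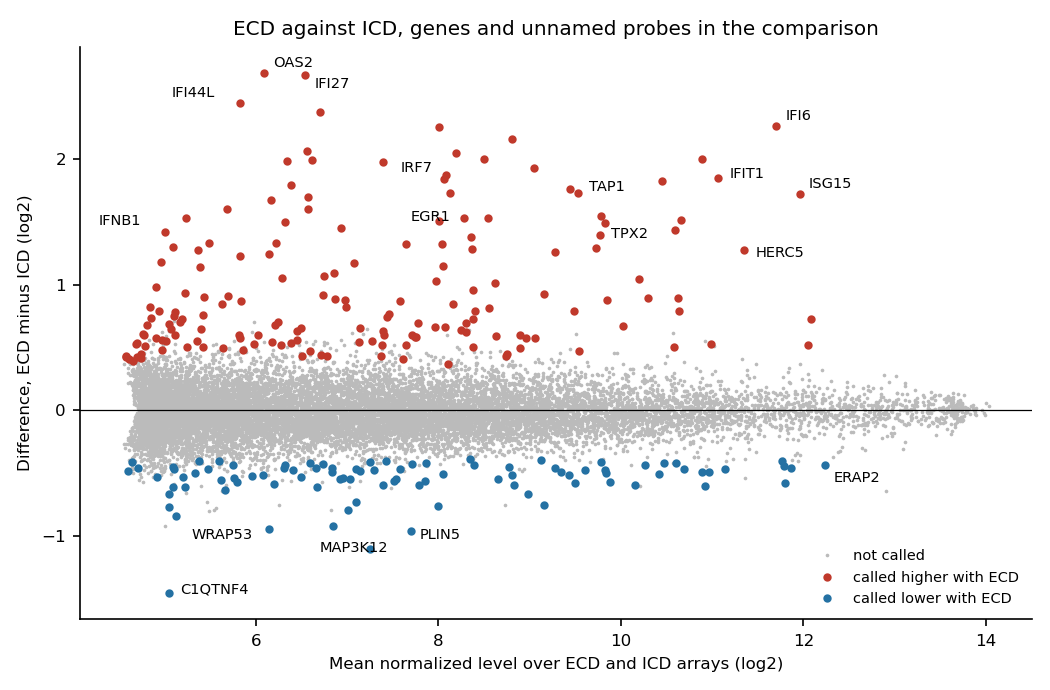
Each point is 1 of the 14840 features, with the mean normalized level over the 6 arrays (log2) on the x axis and the ECD minus ICD difference (log2) on the y axis. Red points are the 170 called higher with ECD and blue points the 92 called lower, and the differences of the higher calls extend to 2.69 for OAS2, while the lower ones extend to -1.45 for C1QTNF4.

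Interferon effector genes made up 45 of the 136 higher calls with a symbol. Effectors here are the union of 8 lists: IFIT proteins, oligoadenylate synthetases, the ISG15 system, MX and GBP GTPases, membrane restriction factors, the IFI family, PARP and PML body genes, and antiviral RNA decay genes. Of 75 such genes on the array, 62 were in the comparison. With ECD 45 of the 62 were higher, none was lower and 17 were not called, beside 1.11% higher among all features tested. Their median log2 difference was 1.10, with a range of -0.39 to 2.69, against -0.02 for all features, and it was 1.10 also with 3 genes set at their bounds. Counting every interferon list, sensors, regulators and class I presentation included, 62 of the 136 higher genes (45.6%) were members, and 51 belonged to no list. The lists were drawn up with earlier results of these data known. Some of the called effectors passed the detection rule only with ECD, MX1, IFI44L, UBA7, BST2 and GBP3 among them.

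The promoters of these genes are shown because many of the higher genes shared 1 short sequence. The core of the ISRE was searched as GAAANNGAAA on both strands, in RefSeq windows of 250 bases before to 50 after a gene's start (GRCh38.p14). It was present in 25 of 37 called effectors with a window (67.6%), in 44 of 111 higher genes with a window (39.6%) and in 1 of 45 lower genes (2.22%). Among all 27305 genes with a window it was present in 1195 (4.38%), and among all genes of the comparison in 335 of 8664 (3.87%). Of the higher genes in no list, 9 of 40 held it (22.5%). Stretches of 80 bases before the start follow for 10 higher genes, 5′ to 3′ on the gene's own strand, with each match in capitals. The TTTC form is the same core on the opposite strand, and capitals longer than 10 bases are overlapping matches.
ISG15 (chr1:1013354-1013433, plus strand): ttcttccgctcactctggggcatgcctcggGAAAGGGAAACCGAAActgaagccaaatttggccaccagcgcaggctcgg
IFIT1 (chr10:89392477-89392556, plus strand): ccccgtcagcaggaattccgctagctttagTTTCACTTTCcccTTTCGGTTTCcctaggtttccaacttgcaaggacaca
IFIT3 (chr10:89327811-89327890, plus strand): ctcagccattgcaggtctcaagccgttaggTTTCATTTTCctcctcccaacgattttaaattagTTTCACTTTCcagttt
OAS3 (chr12:112938301-112938380, plus strand): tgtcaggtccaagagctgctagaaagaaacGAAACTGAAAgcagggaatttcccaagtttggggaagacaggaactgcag
IFI27 (chr14:94110598-94110677, plus strand): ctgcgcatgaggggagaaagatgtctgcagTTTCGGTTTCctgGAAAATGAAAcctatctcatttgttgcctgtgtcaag
IFIH1 (chr2:162318794-162318873, minus strand): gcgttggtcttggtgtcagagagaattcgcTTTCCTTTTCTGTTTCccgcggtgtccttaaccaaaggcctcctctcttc
CXCL10 (chr4:76023668-76023747, minus strand): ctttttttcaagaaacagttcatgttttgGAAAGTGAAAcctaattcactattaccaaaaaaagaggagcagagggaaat
TAP1 (chr6:32853789-32853868, minus strand): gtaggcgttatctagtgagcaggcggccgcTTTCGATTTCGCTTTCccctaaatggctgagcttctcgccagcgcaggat
IFITM3 (chr11:320863-320942, minus strand): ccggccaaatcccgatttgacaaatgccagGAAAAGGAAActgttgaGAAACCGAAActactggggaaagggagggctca
BST2 (chr19:17405711-17405790, minus strand): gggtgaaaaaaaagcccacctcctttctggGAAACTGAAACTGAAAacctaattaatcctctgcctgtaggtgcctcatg
In this view ISG15, IFIH1, TAP1 and BST2 carried overlapping cores, IFIT1, IFIT3, IFI27 and IFITM3 carried separate ones, and OAS3 and CXCL10 carried 1 in the stretch shown. A match describes the letters in the window and is not evidence of binding. For comparison, the gamma-activated site TTCNNNGAA was in 22 of 111 higher genes (19.8%), in 8.26% of the genes of the comparison and in 9.38% of all genes. The cyclic AMP response element TGACGTCA was in 5 of 111 (4.50%), in 3.96% of the genes of the comparison, a share close to it, and in 2.25% of all genes. Both of these read the same on either strand.

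**Figure D2:**
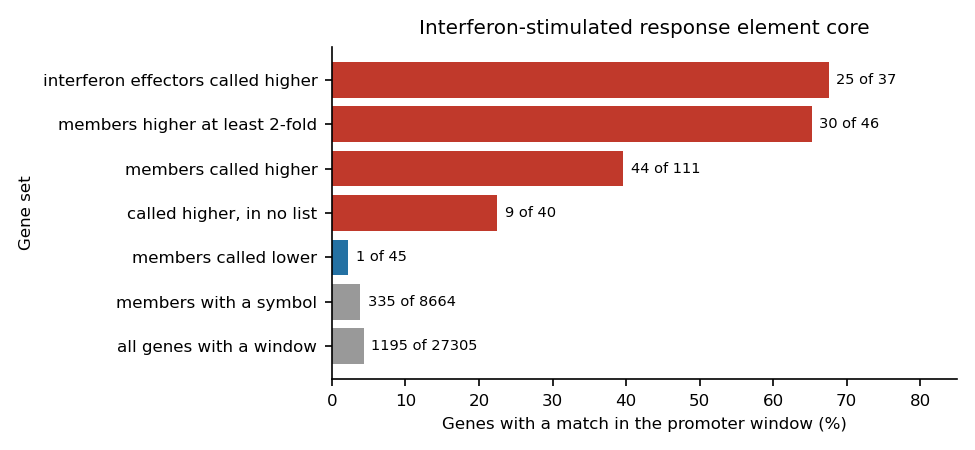
Bars show the percentage of genes with at least 1 ISRE core in the promoter window (x axis, from 0), by gene set (y axis), with counts beside each bar. The called effectors reach 67.6% and all higher genes 39.6%, while the lower genes, all genes of the comparison and all genes with a window lie at 2.22%, 3.87% and 4.38%.

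Interferon beta was the only interferon probe called. IFNB1, its gene, stood at normalized log2 levels of 5.52, 5.95 and 5.65 with ECD and at 4.30, 4.32 and 4.24 with ICD. It was above background on all 3 ECD arrays and on no ICD, Full or Empty array. The gene was at least 2.06-fold higher with ECD, with a fitted difference of 1.42 ± 0.10 (adjusted p = 6.1e-07). A bound like this sets the bright group's mean against the lowest detectable signal on the other group's arrays, or the probe's own signal there if higher. IFNE, an epithelial interferon, was the other interferon in the comparison, at 4.93, 5.00 and 4.73 with ECD and 4.75, 4.82 and 4.81 with ICD. Its groups overlapped and it was not called (0.09 ± 0.11, adjusted p = 0.75). No probe for IFNA1, IFNA2, IFNK, or the lambda interferons IFNL1, IFNL2 and IFNL3 rose above background, on 0 of 12 arrays.

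Chemokines that follow interferon were higher as well, though most of the list was not called. CXCL10, which attracts activated T cells, had 5.89, 6.12 and 6.00 with ECD and 4.74, 4.74 and 4.69 with ICD (1.28 ± 0.13, adjusted p = 3.7e-05). CCL5, another T cell attractant, had 7.49, 7.33 and 7.43 with ECD and 6.70, 6.74 and 6.16 with ICD (0.88 ± 0.14, adjusted p = 0.0031). Both were separate between groups, and they were the 2 called of 13 chemokines and cytokines, whose median was 0.24.

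The sensors of foreign RNA included 6 higher and no lower genes of 12, with a median of 0.44. The median was 0.20 without background correction, and 0.26 with 3 higher when detection on all 12 arrays was required. IFIH1, the MDA5 sensor of long double-stranded RNA, had 10.00, 10.13 and 9.91 with ECD and 8.10, 8.00 and 8.15 with ICD, a difference of 1.93 ± 0.13 (adjusted p = 1.9e-07). RIGI, the sensor of RNA ends with a triphosphate, had 7.35, 7.50 and 7.27 with ECD and 5.55, 5.68 and 6.06 with ICD (1.61 ± 0.13, adjusted p = 1.8e-06). In both genes every ECD array lay above every ICD array by over 1 log2 unit. DDX60, a helicase that aids RIG-I, was higher by 1.5, ZNFX1 by 0.96 and TRIM25, the ubiquitin ligase that activates RIG-I, by 0.84 (largest adjusted p of the 3, 9.4e-05). The adaptors and kinases downstream were not called: MAVS differed by -0.31 (adjusted p = 0.20) and TBK1 by 0.27 (adjusted p = 0.44). Of 6 genes of cytosolic DNA sensing, 1 was called. This was IFI16, a nuclear DNA sensor, with 6.01, 6.31 and 6.14 with ECD and 5.25, 5.23 and 5.25 with ICD (0.91 ± 0.12, adjusted p = 0.00056), while CGAS differed by 0.41 (adjusted p = 0.079) and STING1 by 0.06 (adjusted p = 0.84). The ICD level of IFI16 lay below that with the control plasmid, 5.58. MAVS, TBK1, CGAS and STING1 are named for their place in the pathway after values were seen.

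Among interferon regulatory factors, 3 of 5 were higher. IRF7, the factor that amplifies interferon production, had 9.04, 8.97 and 9.06 with ECD and 7.21, 7.20 and 7.03 with ICD (1.88 ± 0.11, adjusted p = 4.5e-08). IRF9, the DNA-binding partner of STAT proteins, had 10.55, 10.72 and 10.45 with ECD and 9.00, 9.03 and 9.19 with ICD (1.5 ± 0.10, adjusted p = 3.1e-07). IRF1, an activator of antiviral and class I genes, had 8.49, 8.46 and 8.52 with ECD and 7.60, 7.49 and 7.28 with ICD (1.03 ± 0.15, adjusted p = 0.0008). The arrays of the groups were separate in all 3. IRF3, which is activated by phosphorylation, and IRF2, a repressor, were not called, at 0.01 ± 0.12 (adjusted p = 0.97) and 0.11 ± 0.18 (adjusted p = 0.84). Of 15 genes of the interferon receptors, JAK kinases, STAT proteins and their inhibitors, 2 were higher, IRF9 and USP18, and the median was 0.05. The receptor chains IFNAR1 and IFNAR2, named after their values were seen, differed by 0.02 (adjusted p = 0.96) and -0.13 (adjusted p = 0.62).

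All 4 IFIT genes were higher. IFIT proteins bind viral RNA that lacks the host's cap marks. IFIT1 had 11.91, 12.08 and 11.99 with ECD and 10.18, 10.20 and 10.05 with ICD (1.85 ± 0.12, adjusted p = 1.8e-07). IFIT3, which stabilises IFIT1, had 9.01, 9.01 and 8.91 with ECD and 6.98, 7.15 and 7.28 with ICD (1.84 ± 0.10, adjusted p = 4.3e-08). IFIT2 had 11.43, 11.28 and 11.56 with ECD and 9.98, 9.89 and 9.84 with ICD (1.52 ± 0.12, adjusted p = 2.1e-06). IFIT5 was higher by 1.23 ± 0.11 (adjusted p = 8.2e-06). IFIT1 and IFIT2 were among the effectors in which ICD itself stood far above the control plasmid, as ICD minus Empty was 3.90 and 4.44 and ECD minus Empty 5.75 and 5.96 for them.

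Oligoadenylate synthetases make the messenger that activates RNase L. OAS2 showed the largest difference of all, with 7.45, 7.65 and 7.20 with ECD and 4.77, 4.75 and 4.73 with ICD, a 6.44-fold higher level (2.69 ± 0.11, adjusted p = 4.3e-09). It was above background on every ECD, ICD and Full array and on no Empty array. OAS3 had 8.79, 9.42 and 9.17 with ECD and 6.74, 6.86 and 7.03 with ICD (2.26 ± 0.13, adjusted p = 6.2e-08). OASL, a family member that lacks the enzyme activity and aids RIG-I, was higher by 1.73 ± 0.12 (adjusted p = 1.9e-07) and OAS1 by 0.68 ± 0.10 (adjusted p = 0.0012). The size depended on the probe. Other detected probes of OAS1 gave 0.75 and 1.37, one outside the rule gave 0.10, and the other probe of OASL gave 1.00. ABCE1, the RNase L inhibitor, and PDE12, which degrades the messenger, were not called, at 0.32 ± 0.15 (adjusted p = 0.37) and -0.00 ± 0.11 (adjusted p = 1.00).

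The ISG15 system, which attaches a ubiquitin-like protein to others, had 7 of 8 genes higher and a median of 1.27. ISG15, the modifier, had 12.81, 13.01 and 12.65 with ECD and 11.11, 10.96 and 11.22 with ICD (1.73 ± 0.11, adjusted p = 1.4e-07). USP18, which removes ISG15 and dampens the interferon receptor, had 7.99, 7.95 and 7.74 with ECD and 5.52, 5.51 and 5.52 with ICD (2.37 ± 0.13, adjusted p = 3.4e-08). Each step of the chain was called. The activating enzyme UBA7, below background with ICD, was at least 1.5-fold higher (adjusted p = 0.00021), the conjugating enzyme UBE2L6 was higher by 1.26 and the ligases HERC5, HERC6 and TRIM25 by 1.28, 1.38 and 0.84. ARIH1, a general ligase of the list, was not called (0.24 ± 0.11, adjusted p = 0.34).

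Among the large GTPases, 3 of 4 were higher. MX1, which traps viral nucleocapsids, had 6.10, 5.94 and 5.98 with ECD and 4.47, 4.50 and 4.44 with ICD. It was below background on every ICD array and at least 2.53-fold higher with ECD (fitted difference 1.53 ± 0.09, adjusted p = 4.4e-08). GBP1, a guanylate-binding protein that attacks pathogen membranes, was higher by 1.06 ± 0.12 (adjusted p = 7.9e-05), and its other probe gave 1.37. GBP3 was higher by 0.78 ± 0.15 (adjusted p = 0.0099), a call that ended without ECD replicate 2 or ICD replicate 3 (adjusted p up to 0.0711).

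Restriction factors of membranes block viral entry or release, and 4 of 6 were higher. IFITM1 had 7.59, 7.77 and 7.47 with ECD and 5.51, 5.52 and 5.81 with ICD (1.99 ± 0.11, adjusted p = 3.4e-08). IFITM3 and IFITM2 were higher by 1.05 ± 0.15 and 0.80 ± 0.10 (adjusted p = 0.00066 and 0.00029), with the reservation that IFITM copies are similar in sequence and may share signal. BST2, or tetherin, which holds budding virus at the surface, was at least 1.67-fold higher (adjusted p = 0.0052) and below background on all ICD arrays. With ICD the levels of IFITM3 and IFITM2 were within 0.08 of those with the control plasmid.

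In the IFI family and its relatives, 11 of 15 genes were higher with a median of 1.53, or 0.90 without background correction, and 7 were higher when detection on all 12 arrays was required. IFI27, a mitochondrial protein, had 7.77, 7.98 and 7.87 with ECD and 5.12, 5.28 and 5.23 with ICD, a 6.36-fold higher level (2.67 ± 0.14, adjusted p = 2.9e-08). IFI6, which protects membranes used by flaviviruses for replication, had 12.90, 12.83 and 12.77 with ECD and 10.58, 10.71 and 10.41 with ICD (2.27 ± 0.11, adjusted p = 1.7e-08). In both, the lowest ECD array lay more than 2 units above the highest ICD array. IFI44L was higher by 2.45 ± 0.10 (adjusted p = 4.3e-09), with its probe above background on 3 of 3 ECD arrays but 1 of 3 ICD arrays, IFI44 by 2.00 ± 0.13 and SAMD9, a restriction factor of poxviruses, by 2.05 ± 0.19, while a dimmer probe of IFI44L gave 0.33. IFI27L1, IFI27L2, IFI30 and XAF1 were not called (differences of -0.21, -0.24, 0.14 and 0.26).

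PARP and PML body genes had 7 of 11 higher with a median of 0.85, or 0.46 without background correction. PARP10 and PARP12, which attach single ADP-ribose units, were higher by 1.99 ± 0.19 and 1.51 ± 0.10, and PARP9 and PARP14, relatives that modulate interferon signalling, by 1.98 ± 0.12 and 1.45 ± 0.15 (largest adjusted p of the 4, 2.3e-05). SP110, a nuclear body protein, was higher by 1.53 ± 0.10, whereas PML itself was not called (0.50, adjusted p = 0.11). Genes of RNA decay and editing had 7 of 10 higher with a median of 0.79. They included the helicase HELZ2 (1.77), the exonuclease ISG20 (1.33), the double-stranded RNA kinase PKR, encoded by EIF2AK2 (1.29), the RNA-stabilising polymerase TENT5A (1.02) and the RNA editor ADAR (0.90, and 1.00 for its other detected probe). Of 26 TRIM ubiquitin ligases, 5 were higher: TRIM5, TRIM21, TRIM38, TRIM25 and TRIM56, by 0.58 to 1.33. The list as a whole had a median of 0.02.

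Class I antigen presentation had 7 higher and 1 lower of 16 genes, with a median of 0.46, or 0.27 without background correction. TAP1, a chain of the peptide transporter, had 10.40, 10.42 and 10.37 with ECD and 8.60, 8.71 and 8.68 with ICD (1.73 ± 0.11, adjusted p = 1.3e-07). Its partner TAP2 was higher by 0.74 ± 0.11 (adjusted p = 0.0011), and the immunoproteasome subunits PSMB9 and PSMB8 by 1.33 ± 0.10 and 0.67 ± 0.10. PSMB9 with ICD, at 4.77, 4.89 and 4.80, lay below the control plasmid mean of 5.05. HLA-E, a ligand of natural killer cell receptors, was higher by 0.81 ± 0.10 (adjusted p = 0.00028), although probes of HLA genes may share signal. B2M, the light chain, was higher by 0.52 ± 0.09 (adjusted p = 0.005), which became 0.38 and ended the call with median scaling (adjusted p = 0.053). The lower gene was ERAP2, a peptidase that trims these peptides, with 11.97, 11.92 and 12.17 with ECD and 12.38, 12.50 and 12.48 with ICD (-0.43 ± 0.10, adjusted p = 0.037). Its other detected probe gave 0.70, and the mean of its probes gave 0.13 (adjusted p = 0.641). The call also ended on leaving out any 1 of ECD replicates 1 and 2 or ICD replicates 1, 2 and 3 (adjusted p up to 0.191).

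**Figure D3:**
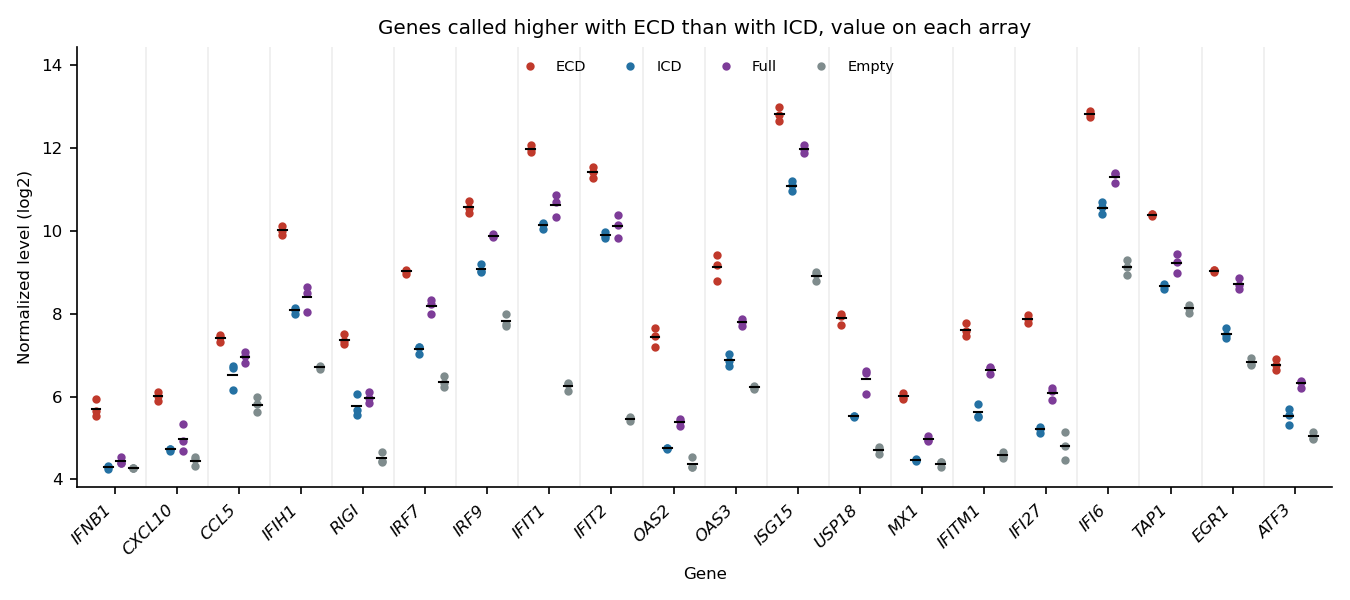
Points are the normalized log2 levels (y axis) of 20 genes called higher with ECD (x axis) on each of 12 arrays, in the order ECD, ICD, Full and Empty within a gene, and bars are group means. The 3 ECD points of every gene lie above its ICD points, and IFIT1, IFIT2 and ISG15 with ICD stand well above Empty. MX1 and IFNB1 were below background on all ICD and Empty arrays, so their points there show no level. The same holds for IFNB1 with Full and for CXCL10, RIGI, OAS2 and IFITM1 with Empty.

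The levels with the other plasmids place these differences. These are descriptions, since differences of ECD and ICD from the control plasmid share the Empty arrays. Over the 62 effectors, the median level minus Empty was 1.43 with ECD, 0.34 with ICD and 0.60 with Full. ECD was the highest of the 4 groups in 51 of the 62, and the order ECD, Full, ICD, Empty, highest to lowest, held in 41. Of the 45 called effectors, 10 had an ICD level at least 2-fold above Empty. For those 10 the medians were 4.02 for ECD minus Empty and 2.30 for ICD minus Empty, and for the other 35 they were 1.63 and 0.38. The ECD minus ICD medians were 1.80 and 1.29. Of the 10, OASL, IFIT3 and IFITM1 were above background on no Empty array, and so were 7 of the 35, so for these genes a difference from Empty is measured against background, not against a level.

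Over all 170 higher features, 118 had an Empty mean below both ECD and ICD, 42 had it between them and 10 above both. The median level minus Empty was 0.95 with ECD and 0.19 with ICD, with 28 of the 170 above background on no Empty array. Full lay between ECD and ICD in 139 (81.8%). All 3 ECD arrays stood above all 9 other arrays in 134 features, and all 3 ICD arrays below all 9 others in 21. The features were chosen for ECD above ICD on these same arrays, which favours such layouts. The shares over all features were not counted.

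Some early response and stress genes were called higher and none lower. EGR1, a zinc finger factor of the immediate early response, had 9.01, 9.06 and 9.06 with ECD and 7.41, 7.48 and 7.65 with ICD (1.53 ± 0.10, adjusted p = 1.7e-07). ATF3, a stress-induced repressor, had 6.64, 6.90 and 6.75 with ECD and 5.69, 5.55 and 5.32 with ICD (1.24 ± 0.11, adjusted p = 6.0e-06), while 2 other probes of ATF3 outside the rule gave -0.03 and -0.10. DDIT3, which encodes CHOP of the integrated stress response, had 7.39, 7.50 and 7.30 with ECD and 6.13, 6.40 and 6.39 with ICD (1.09 ± 0.12, adjusted p = 8.4e-05). In all 3 the groups were separate, and Full lay close under ECD, at 8.72, 6.32 and 7.22. JUN, an AP-1 subunit, was higher by 0.58 ± 0.10 (adjusted p = 0.0065) and KLF4 by 0.59 ± 0.09 (adjusted p = 0.0014). In the lists, 3 of 13 AP-1 and ATF genes, 2 of 16 EGR, KLF and IER genes and 2 of 29 integrated stress response genes were higher, with medians of 0.13, 0.14 and 0.06. These shares lay above the 1.11% of all features called higher. The third AP-1 gene, BATF2 (0.75, adjusted p = 0.0086), lost its call without ECD replicate 1 or ICD replicate 1 (adjusted p up to 0.0547). PPP1R15A, the GADD34 phosphatase subunit (0.43, adjusted p = 0.027), lost it in every fit that left out 1 array except that without ECD replicate 2 (adjusted p up to 0.138). ERK feedback genes had 0 of 17 called.

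The NF-kB, BCL2, death receptor and p53 lists held 1 or 2 higher calls each and none lower. In lists this small, even 1 call exceeds the 1.11% of all features called higher. Of 17 NF-kB genes (median 0.09), TNFAIP3, the A20 inhibitor, was higher, at 5.93, 5.41 and 5.34 with ECD and 4.74, 5.04 and 4.71 with ICD (0.73 ± 0.15, adjusted p = 0.016). The call ended without ECD replicate 1 or ICD replicate 1 or 3 (adjusted p up to 0.0813) and in the values without background correction (0.23, adjusted p = 0.056). PMAIP1, or NOXA, a killer protein of the BCL2 family, had 10.28, 10.25 and 10.31 with ECD and 9.33, 9.63 and 9.25 with ICD (0.88 ± 0.13, adjusted p = 0.0016) and was the 1 called of 17 (median -0.04). MLKL, the effector of necroptosis, and CASP4, a caspase that senses bacterial lipid, were higher by 0.58 ± 0.08 and 0.52 ± 0.09 (adjusted p = 0.0011 and 0.0045), out of 16 death receptor and caspase genes (median 0.08). Of 20 p53 targets, GADD45A was higher (0.50, adjusted p = 0.017), which ended without ECD replicate 1 or 3 or ICD replicate 1 or 3 (adjusted p up to 0.0871). HES4, a transcriptional repressor of the HES family, was higher by 0.93 ± 0.11 (adjusted p = 0.0002), and BAMBI, a decoy receptor (0.43, adjusted p = 0.024), was not called in any fit that left out 1 array (adjusted p up to 0.12). Both belong to a list of 11 HES, ID and related genes, of which 2 were higher (median 0.10).

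A second, smaller block of higher calls came from low levels with ICD. TPX2, a spindle assembly factor, had 10.26, 10.72 and 10.42 with ECD and 9.19, 8.80 and 9.22 with ICD (1.40 ± 0.13, adjusted p = 1.2e-05). The Full and Empty means were 10.04 and 10.33, so the ICD arrays were the ones that stood apart. HNRNPA1P10 and HNRNPA1L2, copies of the splicing factor gene HNRNPA1, showed the same layout, with means of 11.32 and 7.40 with ECD and 9.88 and 6.58 with ICD (differences of 1.44 ± 0.13 and 0.82 ± 0.10, adjusted p = 6.5e-06 and 0.00012). Their Empty means were 11.39 and 7.67. Near-identical copies share probe sequence, so which copy was read is uncertain, and these 2 were named after their values were seen. Features in which ICD lay farther from Empty than ECD numbered 20 of the 170, 11 of them without a symbol. TPX2 was the 1 called of 47 mitosis genes (median 0.12). PRIM2, a primase subunit and the 1 called of 47 replication genes (0.51, adjusted p = 0.023), was not called in any fit that left out 1 array (adjusted p up to 0.109). With 1.11% of all features tested called higher, 1 call in 47 genes says little about either list.

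In the main fit, lower features were fewer, smaller and less stable. With median scaling they were not fewer, at 165 lower beside 160 higher. C1QTNF4, which encodes a secreted protein related to complement, had 4.27, 4.40 and 4.29 with ECD and 5.64, 6.24 and 5.44 with ICD. It was above background with ICD and on no ECD array, so the ECD level was at least 2.15-fold lower (fitted difference -1.45 ± 0.15, adjusted p = 2.9e-05). It was above background on no Full or Empty array either, so the means there, 4.28 and 4.35, show no level. ICD alone stood higher. GNB4, a G protein beta subunit, had the same layout, with 6.59, 6.15 and 6.34 with ECD and 6.99, 6.86 and 7.06 with ICD, beside 6.37 with Empty (-0.61 ± 0.11, adjusted p = 0.011). Its other probe gave -0.65, and its call ended without ECD replicate 2 or ICD replicate 3 (adjusted p up to 0.0752).

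WRAP53 and MAP3K12 were instead low with ECD. WRAP53, needed for telomerase trafficking and Cajal bodies, had 5.68, 5.59 and 5.76 with ECD and 6.52, 6.72 and 6.62 with ICD (-0.94 ± 0.11, adjusted p = 0.00014). MAP3K12, the dual leucine zipper kinase upstream of JNK, had 6.42, 6.43 and 6.30 with ECD and 7.37, 7.23 and 7.33 with ICD (-0.92 ± 0.11, adjusted p = 0.00012). For both, Full sat with ECD (5.67 and 6.57) and Empty with ICD (6.52 and 7.33). SH3GLB2, an endophilin of intracellular membranes, had 8.72, 8.80 and 8.82 with ECD and 9.59, 9.40 and 9.61 with ICD (-0.75 ± 0.09, adjusted p = 0.00019), and FCF1, a factor of small ribosomal subunit assembly, had 6.61, 6.63 and 6.95 with ECD and 7.49, 7.52 and 7.37 with ICD (-0.73 ± 0.10, adjusted p = 0.00068). FCF1 was low only with ECD, as Full and Empty averaged 7.51 and 7.39, and its other probe gave -0.63.

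For several lower genes another probe or 1 array decided the call. PLIN5, a lipid droplet protein (-0.96, adjusted p = 0.043), lost it without ECD replicate 2 or 3 or ICD replicate 2 or 3 (adjusted p up to 0.213), and HINT3, a nucleotide hydrolase (-0.79, adjusted p = 0.019), without any 1 array but ICD replicate 1 (adjusted p up to 0.101), with -0.04 in its other detected probe. SNF8, an ESCRT subunit (-0.66, adjusted p = 0.038), was not called in any fit that left out 1 array (adjusted p up to 0.146). ABRAXAS1, of the BRCA1 complex at broken DNA, had 10.72, 10.52 and 10.64 with ECD and 11.17, 11.31 and 11.21 with ICD (-0.60 ± 0.10, adjusted p = 0.0032), which lost the call when its probes were averaged (-0.35, adjusted p = 0.10). The same averaging ended the calls of JHY and EID2B, at -0.24 and -0.40 (adjusted p = 0.27 and 0.057), and that of EID2B also ended without ECD replicate 2 (adjusted p = 0.0567). KRTAP10-2, a hair keratin-associated protein, had 4.62, 4.81 and 4.68 with ECD and 5.55, 5.27 and 5.30 with ICD (-0.67 ± 0.12, adjusted p = 0.0069), with 2 of 3 ECD arrays above background, and was not called without background correction (-0.20, adjusted p = 0.056). DEFB123, a beta-defensin gene (-0.61, adjusted p = 0.023), lost the call without ECD replicate 1 or 2 or ICD replicate 1 (adjusted p up to 0.129), without background correction (-0.19, adjusted p = 0.0883), without a detection filter (adjusted p = 0.0534) and with only the 6 ECD and ICD arrays (adjusted p = 0.0679). ZNF483, a zinc finger gene (-0.60, adjusted p = 0.015), lost it without ECD replicate 2 or 3 or ICD replicate 1 or 3 (adjusted p up to 0.0817).

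Across symbols, other detected probes had the same sign for 97.9% of 47 probes in 39 higher genes, with a median of 0.70 beside 0.74 for the probe used. In 17 lower genes with 22 other probes the share was 63.6% and the median -0.09, beside -0.51. Of the 92 lower features, 83 (90.2%) had an Empty mean between ECD and ICD, with median levels minus Empty of -0.21 with ECD and 0.31 with ICD. In 41 all 3 ICD arrays stood above all 9 others, and in 36 all 3 ECD arrays stood below all 9 others. Choosing features with ECD below ICD on these arrays favours such layouts too, and shares over all features were not counted.

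**Figure D4:**
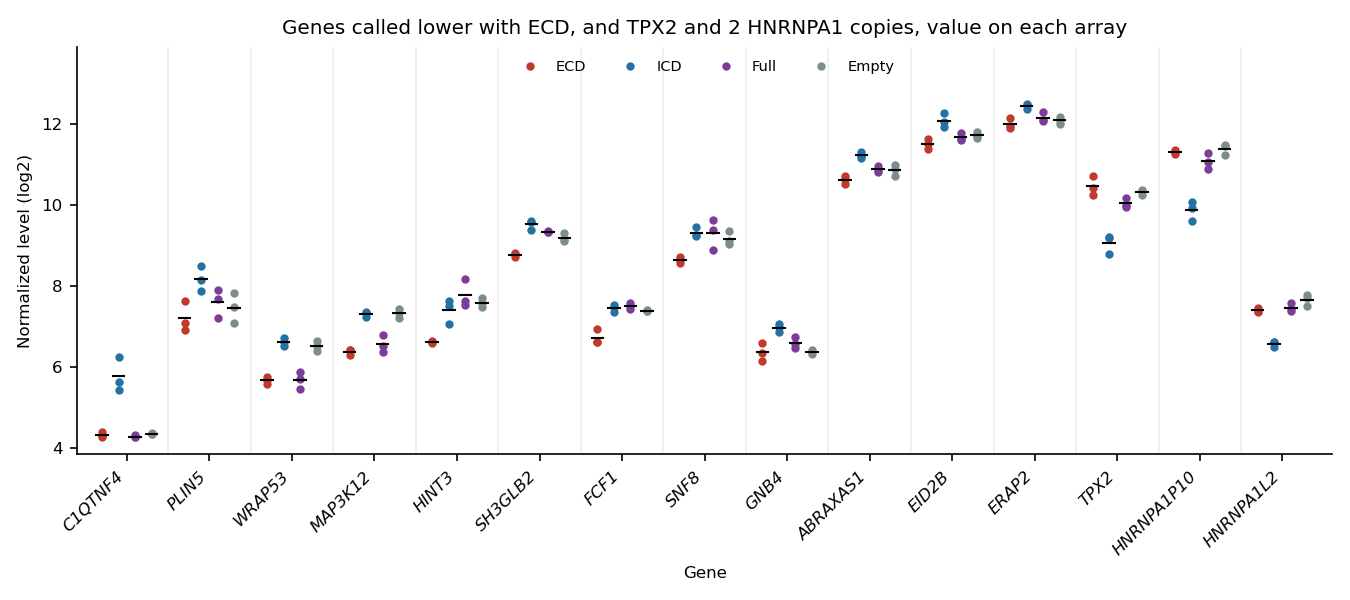
Points are the normalized log2 levels (y axis) of 12 genes called lower with ECD, then TPX2, HNRNPA1P10 and HNRNPA1L2, which were called higher (x axis), on each of 12 arrays, in the order ECD, ICD, Full and Empty within a gene, with bars at group means. ICD stands apart in C1QTNF4, GNB4, TPX2 and the HNRNPA1 copies, and ECD with Full stands apart in WRAP53 and MAP3K12. C1QTNF4 was above background only on the ICD arrays, so its other points show no level.

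Other functions are given as counts, and with 1.11% of all features called higher and 0.6% lower, lists of these sizes would hold few calls at the background share. None was called among 69 respiratory chain, 68 ribosomal protein, 39 splicing factor, 33 glycolysis and hypoxia, 30 cholesterol and fatty acid, 23 histone, 23 endoplasmic reticulum folding, 18 heat shock and 19 NRF2 target genes, and their medians lay between -0.02 and 0.08. Nor was any called among 44 integrin, adhesion and actin genes (median -0.03), 21 semaphorins, plexins and partners (median -0.01) and 13 receptor kinases (median 0.03). The groups overlapped in GAPDH, which differed by -0.01 ± 0.09 (adjusted p = 0.96), and in ACTB, which differed by -0.04 ± 0.09 (adjusted p = 0.87). FSCN1, an actin-bundling protein, differed by -0.13 ± 0.10 (adjusted p = 0.60). AXL, the brightest receptor kinase, differed by 0.15 ± 0.11 (adjusted p = 0.57). Of 12 housekeeping genes, B2M was the 1 called, and of 20 epithelial, mesenchymal and matrix genes it was DSP, a desmosome protein (0.60, adjusted p = 0.018), which lost the call without ECD replicate 2 or 3 or ICD replicate 1 or 2 (adjusted p up to 0.108).

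**Figure D5:**
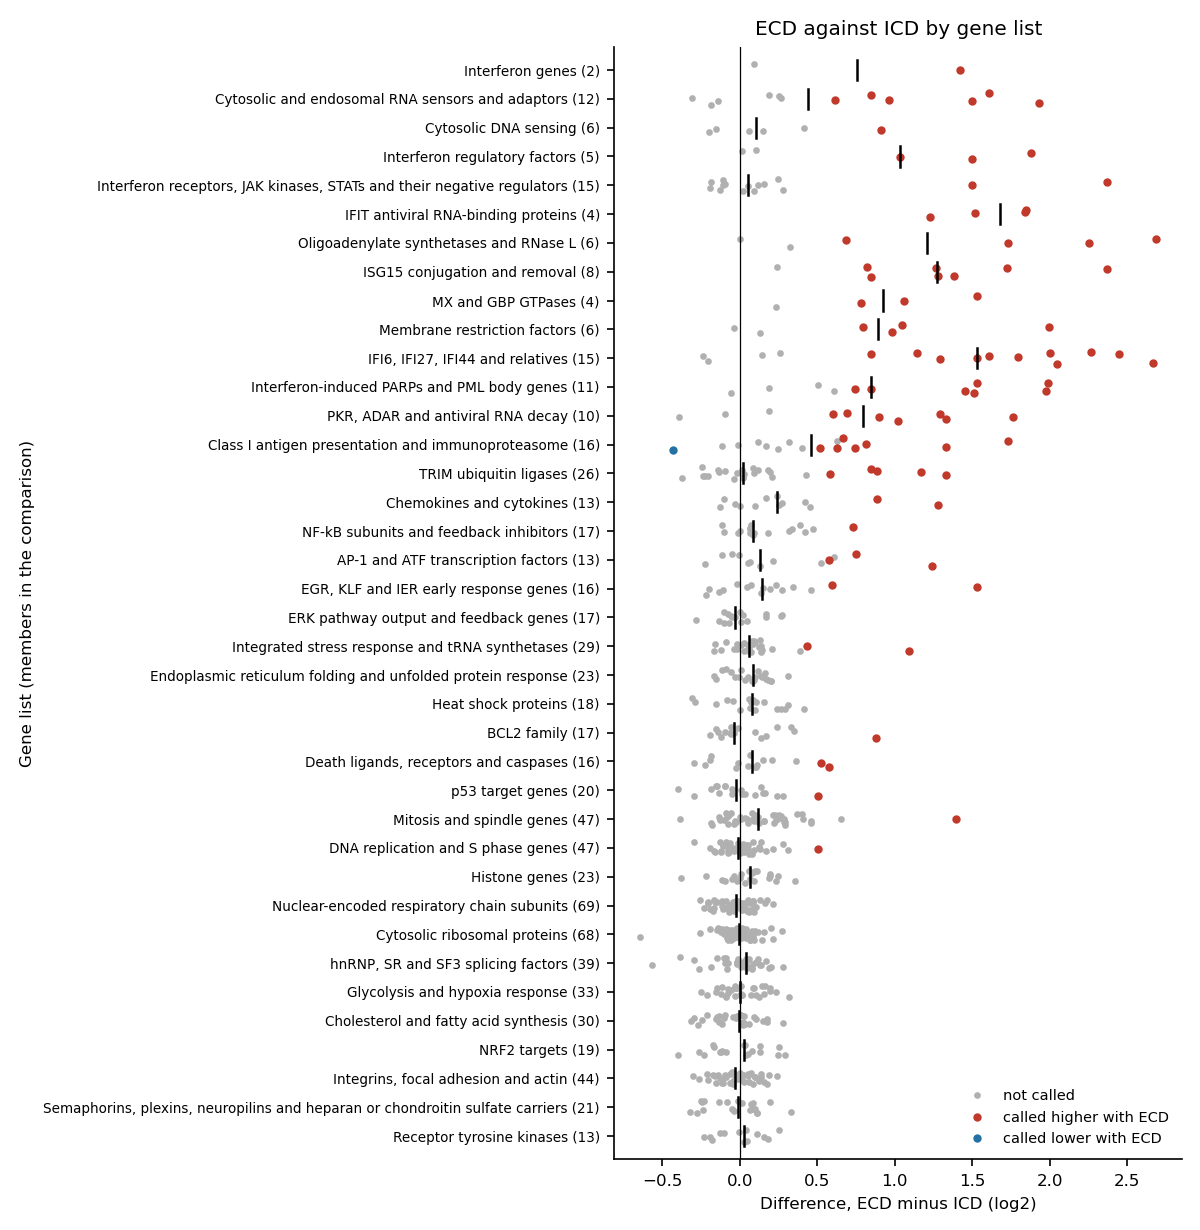
Each point is a gene's ECD minus ICD difference on the log2 scale (x axis) in its list (y axis, with the number of members), red where called higher, blue where called lower and grey where not called, and black bars are list medians. The interferon lists from the IFIT to the RNA decay genes have medians of 0.79 to 1.68, and the lists below the TRIM ligases have medians of -0.04 to 0.24.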

How the data were processed

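Each of the 12 arrays, per the labels a single-channel Illumina BeadChip with biotin-labelled cRNA, was assigned by its title to a group and replicate. For 47323 probes, the deposited table holds a linear intensity that still contains background, as its values show, and a detection p-value against negative controls. The authors also deposited log2 values, which match quantile-normalized log2 intensities to within 5.0e-09. Scanner software is not given here.

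The neqc function of limma 3.58.1 (R 4.3.3) corrected and normalized the intensities, with the normexp background estimated from detection p-values, an offset of 16, quantile normalization and log2. The offset shrinks the differences of dim probes. The fit took the 18728 probes detected (p under 0.05) on every array of 1 or more groups, each symbol represented by its brightest such probe over the 12 arrays, giving 15338 features. Of these, 498 lay outside the rule of the comparison, and 0 of them were called. Of the members, 13432 passed in both groups, 709 only with ECD and 699 only with ICD. Probes were named from the platform annotation (30113 with 1 symbol, 8 with several), and 30074 were matched by Entrez identifier to RefSeq genes of GRCh38.p14, which changed 0 symbols. The contrast of ECD minus ICD came from 1 limma fit over 12 arrays, moderated by eBayes with 6.53 prior and 8 residual degrees of freedom, two-sided, with Benjamini-Hochberg adjustment over all features. Values after ± are standard errors of the difference.

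The members, the 47 gene lists with 1207 genes and the tests were chosen with earlier results of these data known. Named were the 15 largest calls with a symbol in each direction, up to 5 called members of each list and direction, all members of the interferon, IFIT, oligoadenylate, IRF and ISG15 lists, SEMA5A, PLXNB3, MET and up to 2 bright members of lists with no call. Others were named after their values were seen, which applies to the genes given only as not called as well. Same-numbered ECD and ICD arrays did not deviate together (r = -0.017, -0.085 and -0.044 across features), so numbers were not treated as pairs. Only the fit and its calls were tried on simulated data, with independent normal noise for each feature. Background correction, the detection filter and the choice of probe were not part of that trial. There were 0 identical array columns and 0 unused sample columns. Figures used matplotlib 3.10.9 under Python 3.11.15.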

Additional observations from a re-analysis of the deposited data

How the results depend on the processing

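The count of higher calls (170) stayed between 118 and 235 under every alternative run, and of the named genes only ERAP2 reversed. The count of lower calls (92) was less firm. It was 162 without background correction and with the authors' log2 values (211 higher, 145 of the higher and 73 of the lower calls shared), 153 with offset 50, 165 with median scaling, 145 with a mean-variance trend, 148 with array weights, 16 at an adjusted p under 0.01, and 20 to 60 when 1 array was left out, with 119 to 140 higher. Across those 6 fits, 109 of 170 higher and 12 of 92 lower features were called each time, as were 42 of the 45 effectors. The number of higher effectors fell to 28 when detection on all 12 arrays was required, which by construction drops genes below background with Empty. Their median of 1.10 was 0.70 without background correction and with the authors' values, 0.84 with offset 50, 1.02 with detection on all 12 arrays, and 1.05 to 1.15 with 1 array left out. The medians of the oligoadenylate and membrane lists moved likewise, to 0.77 and 0.53 from 1.21 and 0.89, without background correction. ERAP2 was at 0.13 when its probes were averaged, as its probes disagree. With the replicate number as a block, 169 features were higher and 79 lower, and 2 of the 92 named calls ended, PLIN5 (adjusted p = 0.053) and SNF8 (adjusted p = 0.054), but the numbers do not pair the arrays. Signal near background limits genes such as IFNB1, MX1, BST2 and C1QTNF4 to bounds. The causes of other shifts were not tested.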

Other observations

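Of the 136 genes called higher with ECD, 51 were in none of the lists, with a median log2 difference of 0.58. The genes in this paragraph were chosen after their values were seen, except SHFL. SHFL, an inhibitor of ribosomal frameshifting, had 7.69, 7.51 and 7.57 with ECD and 5.58, 5.42 and 5.58 with ICD (2.07 ± 0.12, adjusted p = 4.7e-08). LAMP3, a lysosomal membrane protein, averaged 7.00 with ECD and 5.33 with ICD. DDX60L, a relative of the helicase DDX60, averaged 5.75 with ECD and 4.44 with ICD. The ICD value of DDX60L is under the lowest detected signals on the ICD arrays (4.65 to 4.67) and so shows no level. REC8, a meiotic cohesin subunit, was higher by 1.07 and CYP2J2, an arachidonic acid epoxygenase, by 0.92. CMTR1, which methylates the first transcribed nucleotide next to the cap, was higher by 0.67, LAP3, a leucine aminopeptidase, by 0.67, and RBCK1, a subunit of the linear ubiquitin ligase, by 0.64. DKK1, a secreted Wnt inhibitor, was higher by 0.44 (adjusted p = 0.034), and FZD4, a Wnt receptor, by 0.53 (adjusted p = 0.020).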
